A study of Homo sapiens with 6 samples.

Results

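Genes for the mesenchymal state, the extracellular matrix and the proteases that cut it were followed in DU 145, an established human cell line from a prostate carcinoma, treated for 48 h with the PARP inhibitor talazoparib. The 43 genes were chosen by symbol from the 24305 genes of the count table, and all 43 were found there. They comprise 5 transcription factors, 3 cytoskeletal and surface proteins, 5 matrix glycoproteins, 6 collagens, 8 laminins and basement membrane proteoglycans, 5 matrix-modifying enzymes, 7 proteases or protease receptors and 4 protease inhibitors. Total RNA was sequenced from 3 libraries labelled talazoparib and 3 labelled "DMOS", taken here as the solvent DMSO and called control. Both groups are the same line at 48 h, and neither carries a stated genetic change. The series design describes DU 145 as deficient in homologous recombination repair and names doses of 5, 10 and 20 µM, but no label says which dose was sequenced. The labels do not say whether each library is a culture of its own; the spread behind every p-value may thus be technical only.

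Epithelial cells that take on mesenchymal traits are said to undergo epithelial-mesenchymal transition. The ZEB, SNAI and TWIST transcription factors drive it, in part by repressing the E-cadherin gene CDH1 at E-box sequences, while vimentin, N-cadherin and fibronectin are its usual readouts. Collagens and laminins build the matrix and basement membrane, lysyl hydroxylases and lysyl oxidases modify and crosslink it, and the urokinase system and matrix metalloproteinases degrade it under the control of TIMPs and serpins.

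Library totals ran from 39123997 to 39585727 counts. Replicates were not equally alike. The chi-square per degree of freedom between libraries was 19.4 and 25.9 for the 2 pairs with control replicate 1 and 5.02 between control replicates 2 and 3. It was 30.0 between talazoparib replicates 2 and 3, the highest within a group, and 13.2 and 11.95 for the other talazoparib pairs. Pairs across the groups ran from 67.2 to 199. On the first principal component (72.9% of the variance) control replicate 1 lay nearest the talazoparib libraries, and talazoparib replicates 2 and 3 were the ends of the second (8.98%). Across all genes the change with talazoparib moved with transcript composition, from a median log2 fold change of -0.73 in the most GC-poor decile of genes to 0.43 in the most GC-rich, and from 0.34 in the shortest decile to -0.64 in the longest. For this reason the tested members and lists are also given from a fit in which the GC and length trend of every library was removed, called trend-removed. Of the epithelial markers, KRT8 (583 CPM, counts scaled to library size, in controls) and KRT18 (526 CPM) were high. In controls KRT19 was at 41.8 CPM, EPCAM was at 4.74 CPM, and CDH1 was close to 0 at 1.37 CPM. The fibroblast markers COL1A2, DCN and LUM and the leukocyte markers PTPRC and CD3E had no count in any library. The summed fibroblast list lay at 2.77 to 3.05 CPM in controls and 2.26 to 3.33 CPM with talazoparib. COL1A1, the only fibroblast marker with enough counts to be tested, was at 2.55 and 2.54 CPM in these groups. The summed endothelial list lay at 0.127 to 0.414 CPM in controls and 0.364 to 0.638 CPM with talazoparib.

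Start-region sequences are shown for genes the results turn on. They are the interval between the head-to-head starts of COL4A1 and COL4A2, a pair compared below, and the 250 bases before the starts of MMP14 and PLAUR, which both rose. They are RefSeq sequences of build GRCh38.p14, written 5′ to 3′ along the plus strand for the collagen interval (chr13:110307158-110307283) and along the gene's strand for MMP14 (chr14:22836335-22836584, plus) and PLAUR (chr19:43670170-43670419, minus). Capitals mark CCAAT and GGGCGG boxes in the collagen interval, the GGGCGG box in MMP14, and the AP-1 motif TGANTCA in PLAUR. MMP14 also holds a CCAAT box, written attgg and beginning 118 bases before the start, which is not capitalised.
COL4A1 and COL4A2 interval: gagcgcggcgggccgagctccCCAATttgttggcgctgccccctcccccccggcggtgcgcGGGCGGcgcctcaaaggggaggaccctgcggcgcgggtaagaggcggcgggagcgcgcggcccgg
MMP14: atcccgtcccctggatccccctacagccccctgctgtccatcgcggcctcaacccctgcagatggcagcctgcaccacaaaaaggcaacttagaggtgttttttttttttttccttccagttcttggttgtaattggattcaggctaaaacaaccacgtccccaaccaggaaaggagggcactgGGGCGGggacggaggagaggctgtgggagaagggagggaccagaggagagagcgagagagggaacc
PLAUR: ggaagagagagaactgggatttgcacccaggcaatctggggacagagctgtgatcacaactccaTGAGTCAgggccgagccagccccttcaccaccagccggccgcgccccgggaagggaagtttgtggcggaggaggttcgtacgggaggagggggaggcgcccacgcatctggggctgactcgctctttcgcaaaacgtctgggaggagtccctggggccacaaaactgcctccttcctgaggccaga
Each motif was searched on both strands, and the motifs do not overlap one another in these sequences. RefSeq start regions were matched for 32 of the 43 genes. The AP-1 motif lay in the 250 bases before the start of 2 of these 32, PLAUR (beginning 186 bases before the start) and LAMA3, against 6.60% of 27305 RefSeq start regions of that length. The GGGCGG box was in 26 of the 32, against 42.3% of all, and CCAAT in 12 of the 32, against 33.0% of all. The E-box CACCTG, the ZEB and SNAI recognition sequence, was in 5 of the 32, one of them ZEB1, against 17.5% of all. A match describes letters and not a bound site.

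Of the 43 genes, 35 had enough counts to be tested. With talazoparib 17 of them rose, 10 fell and 8 did not pass edgeR's quasi-likelihood test at an adjusted p of 0.05. Over all 14452 genes tested 56.7% were called, 26.8% higher and 29.9% lower, so the share of these genes that fell (28.6%) lay near the background and the share that rose (48.6%) above it; no test of the list was made. Their median log2 fold change was 0.20, against 0.00150 over all genes. Trend-removed, 16 were higher and 7 lower, against 22.0% and 22.2% of all genes (44.2% in either direction). Of them 14 and 5 were called the same way in both fits. With the length trend alone removed 20 were higher and 4 lower. The median over all genes in that fit was 0.052, and no all-gene share called is given beside those counts. The 17 genes that rose had a median deposited length of 4062 nt and a median GC content of 57.9%, and the 10 that fell 8385 nt and 47.5%. The part of length and GC content in the calls was not tested beyond the trend-removed values. In bulk RNA, fewer cells of a type and less RNA per cell cannot be told apart. The genes' CPM in the groups did not overlap for 29 of 35, 20 with talazoparib above and 9 below, against 64.4%, 31.6% and 32.8% of all genes. The counts by role below are to be read beside the all-gene shares of this paragraph, and no role was tested as a set.

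**Figure D1:**
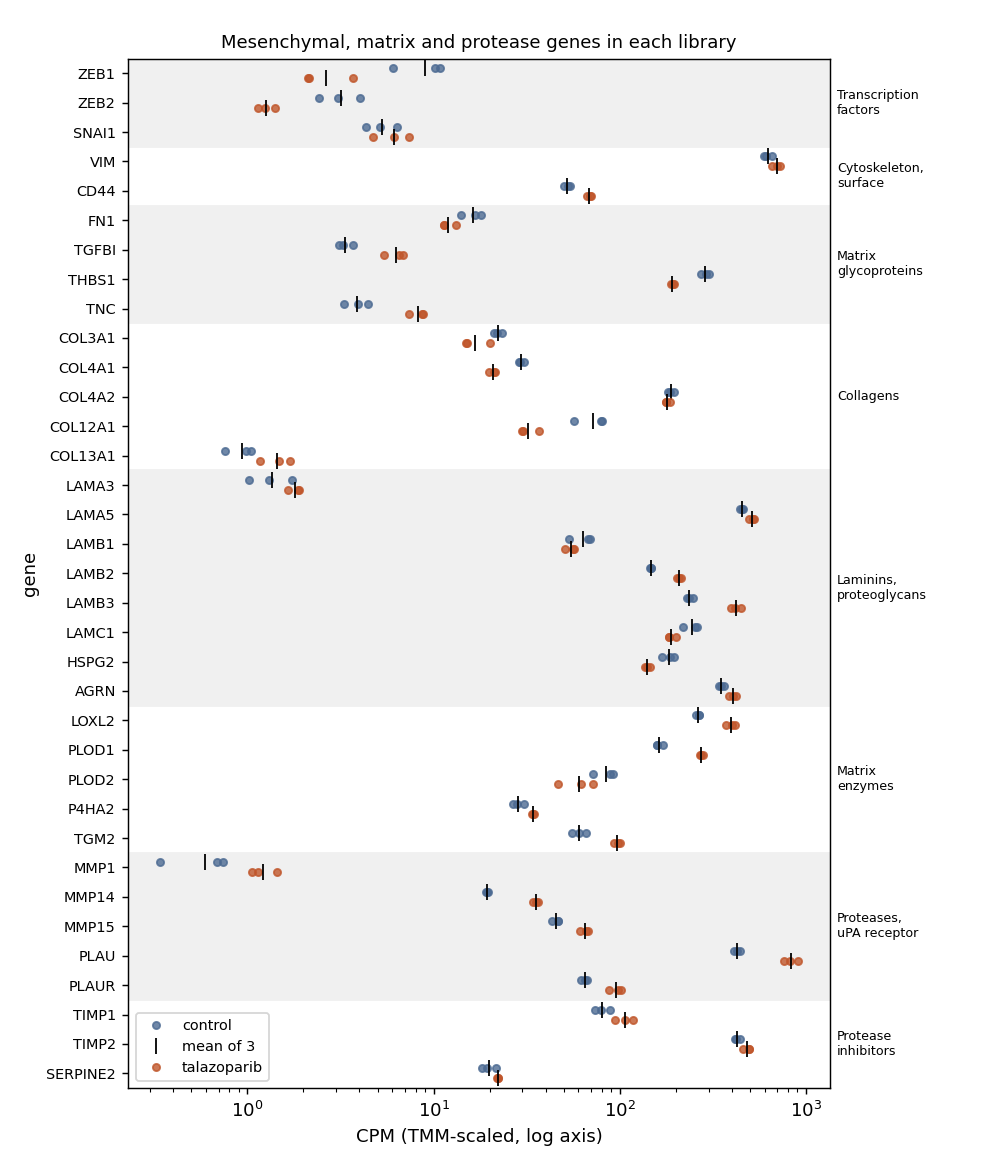
Each dot is the TMM-scaled CPM (log axis) of a gene in 1 library, blue for control and orange for talazoparib, and each bar is the mean of 3 libraries; genes are grouped by role. All 5 proteases or receptors lie to the right of their controls, from MMP1 near 1 CPM to PLAU, which goes from 426 to 830 CPM, while ZEB1, ZEB2, THBS1, COL4A1 and COL12A1 lie to the left.

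Levels between genes can be compared per length, as FPKM, fragments scaled to both gene length and library size. The length is the deposited one, which need not be that of 1 transcript, and the FPKM level depends on it. In controls VIM was the most abundant of the 43 at 296 ± 8.65 FPKM (SD, n = 3 here and below), followed by the urokinase gene PLAU (158 ± 1.55), the inhibitor TIMP2 (120.0 ± 0.729) and the lysyl oxidase LOXL2 (72.9 ± 1.22). These 4 kept their order with talazoparib, where PLAU reached 291 ± 19.5 FPKM and VIM 315 ± 8.18, a gap near the spread of PLAU. PLOD1 and LAMB3 did not differ beyond their spread in controls (53.6 ± 1.03 and 53.6 ± 0.600 FPKM), nor did TIMP1 and AGRN (44.7 ± 3.14 and 44.3 ± 0.279). The collagens of this set, apart from COL4A2 (29.9 ± 0.407), and its transcription factors were all below 6 FPKM.

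The lowest fold changes among the tested members were those of 2 transcription factors. ZEB1, a zinc-finger repressor of epithelial genes (chr10:31318495-31529814, plus strand, GRCh38 in GENCODE 29), was at 6.07, 10.2 and 10.8 CPM in the 3 control libraries and at 2.11, 2.15 and 3.70 CPM with talazoparib, a fall of 3.40-fold (log2 fold change -1.77 ± 0.27, SE; adjusted p = 0.000232). All talazoparib libraries lay below all controls, and control replicate 1 was the lowest control; without it the value was -2.02. Its paralogue ZEB2 was at 2.41, 4.02 and 3.07 CPM in controls and 1.41, 1.14 and 1.24 CPM with talazoparib (-1.32 ± 0.24, adjusted p = 0.000582), again without overlap. Both have long deposited lengths (8199 and 9265 nt) and AT-rich transcripts (38.5% and 39.1% GC). Trend-removed, ZEB1 was still lower at -0.89 (adjusted p = 0.00319), and ZEB2 at -0.40 did not pass (adjusted p = 0.126). SNAI1, the Snail gene, overlapped between groups (6.40, 4.36 and 5.16 CPM against 7.39, 4.76 and 6.16 CPM) and did not pass (0.20 ± 0.20, adjusted p = 0.399). SNAI2, with 0 to 5 counts a library, and TWIST1, with 0 or 1, were not tested. An antisense gene, ZEB1-AS1, overlaps ZEB1 exons and had 61 to 114 counts a library against at least 81 for ZEB1. The extent of the overlap was not measured. The strand setting of the counting is not given in the sources used here, so how reads in the shared bases were assigned is unknown.

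Among the cytoskeletal and surface genes CD44, a hyaluronan receptor, rose modestly. It was at 54.0, 50.3 and 52.4 CPM in controls and at 66.8, 69.9 and 69.4 CPM with talazoparib (0.39 ± 0.08, adjusted p = 0.000995). The groups stood clear of each other, and trend-removed the rise was larger, 0.86. VIM, the intermediate filament protein vimentin, was high in all libraries (662, 595 and 611 CPM against 702, 730 and 661 CPM), its groups overlapped and it did not pass (0.16 ± 0.08, adjusted p = 0.0808). Its value changed sign trend-removed, to -0.15 (adjusted p = 0.00871), and it passed as higher with upper-quartile scaling (0.19) and without control replicate 1 (0.17) or talazoparib replicate 3 (0.20). CDH2, N-cadherin, had 8, 2 and 16 counts in the control libraries and 0, 0 and 1 with talazoparib, too few for the test; with no low-count filter edgeR's adjusted p was 0.00371. CDH1, E-cadherin, was low in both groups, at 0.288 FPKM in controls and 0.159 FPKM with talazoparib, and did not pass (-0.78 ± 0.33, adjusted p = 0.0617). Neither cadherin was abundant.

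**Figure D2:**
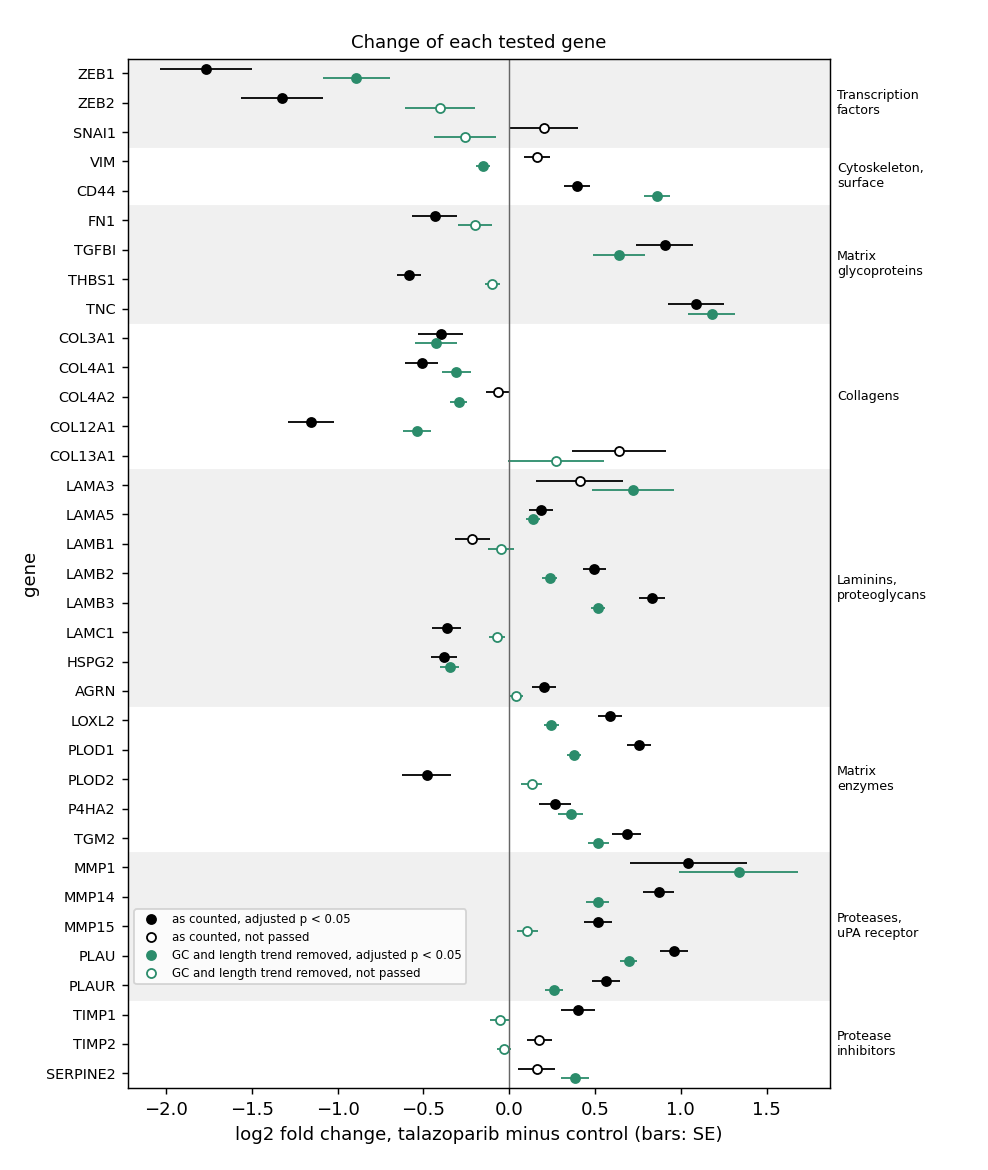
Log2 fold change of each of the 35 tested genes, talazoparib minus control, with its SE as a bar: black as counted, green with the GC and length trend removed; filled symbols have an adjusted p under 0.05. PLAU, MMP14, LAMB3, PLOD1, TGM2 and TNC are filled on the right in both fits and ZEB1, COL12A1, COL4A1 and HSPG2 on the left, while VIM is on opposite sides.

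The matrix glycoproteins split. TNC, tenascin-C, a large adhesion-modulating protein of remodelling matrix, rose from 3.94, 4.45 and 3.30 CPM to 8.80, 8.64 and 7.40 CPM (1.09 ± 0.16, adjusted p = 0.000171). TGFBI, a secreted integrin-binding protein induced by TGF-beta, rose from 3.12, 3.67 and 3.27 CPM to 5.44, 6.88 and 6.54 CPM (0.91 ± 0.17, adjusted p = 0.000658). Neither overlapped between groups, and both were called higher trend-removed, at 1.18 and 0.64. The deposited length of TNC, 9240 nt, is among the long ones. THBS1, thrombospondin-1, fell from 274, 290 and 300 CPM to 196, 188 and 192 CPM (-0.58 ± 0.07, adjusted p = 3.86e-05), and FN1, fibronectin, from 14.0, 18.1 and 16.7 CPM to 13.2, 11.4 and 11.4 CPM (-0.44 ± 0.13, adjusted p = 0.0139). The groups were apart for both, but trend-removed neither fall passed (-0.10 for THBS1, -0.20 for FN1). The call for FN1 also ended without control replicate 2 (-0.39) or 3 (-0.45). SPARC, with 1 count in all 6 libraries together, was not tested.

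Of 5 collagens tested, 3 fell and 2 did not pass. COL12A1, a fibril-associated collagen, fell most, from 56.7, 79.6 and 79.9 CPM to 36.6, 30.4 and 30.0 CPM (-1.16 ± 0.14, adjusted p = 4.74e-05). Control replicate 1 was the control nearest the talazoparib libraries; without it the value was -1.34. COL3A1, a fibrillar collagen, fell from 21.0, 23.2 and 22.0 CPM to 15.2, 15 and 20.1 CPM (-0.40 ± 0.13, adjusted p = 0.0196), with talazoparib replicate 3 just under the controls. That call ended without control replicate 2 (-0.39) or 3 (-0.44) or talazoparib replicate 1 (-0.33) or 2 (-0.32). Trend-removed, COL12A1 (-0.54) and COL3A1 (-0.43) were still lower, but with the length trend alone removed COL3A1 did not pass (-0.17, adjusted p = 0.249). COL13A1, a transmembrane collagen, went from 0.762, 1.05 and 0.984 CPM to 1.48, 1.17 and 1.70 CPM and did not pass (0.64 ± 0.27, adjusted p = 0.0616), except without talazoparib replicate 2 (0.77); trend-removed it was at 0.27 and did not pass. COL5A1 had at most 6 counts in a library and was not tested.

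COL4A1 and COL4A2 encode the 2 chains of the common type IV collagen trimer of basement membranes, and the interval printed above separates their RefSeq starts by 126 bases. COL4A1 fell from 29.3, 30.7 and 28.8 CPM to 21.0, 19.9 and 21.4 CPM (-0.51 ± 0.10, adjusted p = 0.000784), with no overlap. COL4A2 was at 196, 181 and 186 CPM in controls and 186, 177 and 177 CPM with talazoparib, which overlapped (-0.06 ± 0.07, adjusted p = 0.465). The FPKM ratio of COL4A1 to COL4A2 was 0.0616, 0.0699 and 0.0638 in controls and 0.0468, 0.0465 and 0.050 with talazoparib, a difference of -0.45 on the log2 scale. This did not pass the two-sided exact permutation test (p = 0.10, the smallest that 3 libraries against 3 allow; 0.15 adjusted over 6 gene pairs). The deposited lengths of the pair differ (15595 and 6446 nt), as do their GC contents (55.4% and 62.0%), and trend-removed the pair lay close together, at -0.31 for COL4A1 and -0.29 for COL4A2, both called lower. With only the length trend removed neither fell (0.21 and 0.26, the latter called higher), and with total-count scaling COL4A2 passed as lower (-0.14).

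**Figure D3:**
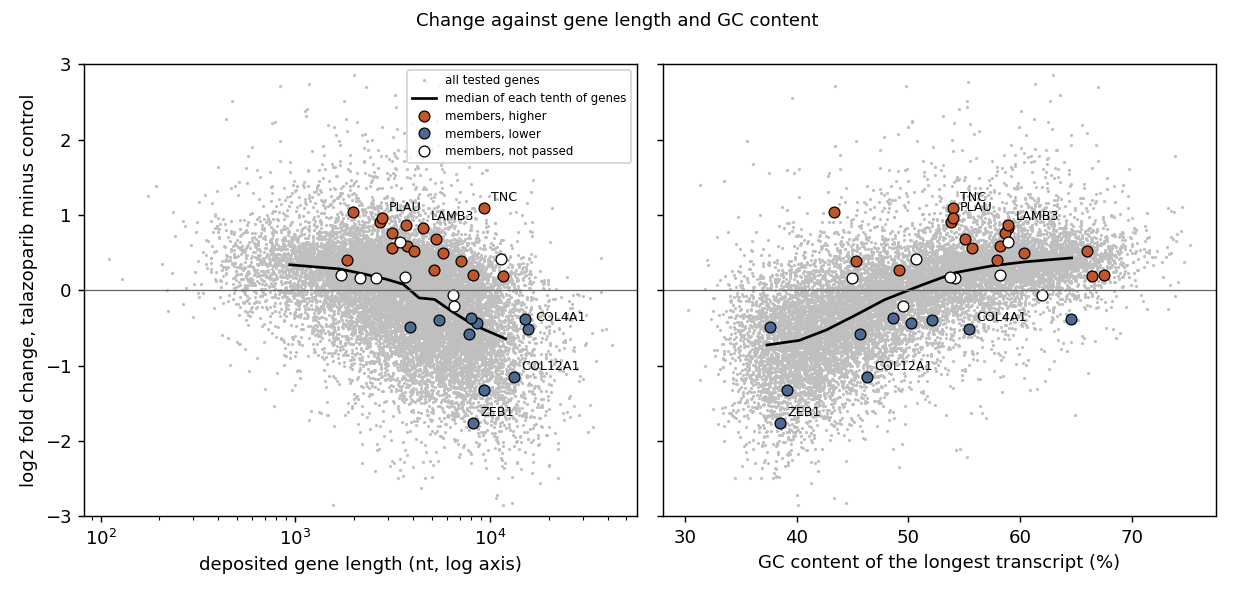
Log2 fold change of all 14452 tested genes (grey) against deposited length (left, log axis) and of those with a GC value against GC content in percent (right), with the median of each decile of genes as a line and the 35 members as circles coloured by call; genes beyond the vertical axis are not drawn. Of the 10 members that fell, 8 are longer than 6000 nt and 6 have under 50% GC, and TNC and PLAU lie above the line in both panels.

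Basement membrane genes moved in both directions: of 8 laminin and proteoglycan genes 4 rose, 2 fell and 2 did not pass. LAMB3, the beta chain of laminin-332, the laminin that anchors epithelial cells through hemidesmosomes, changed most, from 246, 229 and 236 CPM to 419, 448 and 398 CPM (0.83 ± 0.07, adjusted p = 9.69e-06). LAMB2, the beta chain of laminins such as laminin-521, rose from 148, 148 and 146 CPM to 213, 208 and 202 CPM (0.50 ± 0.07, adjusted p = 9.07e-05). Both stood clear of the controls and were called higher trend-removed, at 0.52 and 0.24. The rises of LAMA5, the alpha chain of laminins such as laminin-511, and of AGRN, the heparan sulfate proteoglycan agrin, were small and close to the threshold. Neither overlapped between groups, and both stayed positive whichever library was left out. LAMA5 was at 443, 461 and 456 CPM against 529, 521 and 495 CPM (0.18 ± 0.07, adjusted p = 0.0366), and its call ended without any of control replicates 1 (0.13), 2 (0.16) and 3 (0.15) or talazoparib replicates 1 (0.17) and 2 (0.18), and with total-count scaling (0.11). Trend-removed it was called higher at 0.14, and with the length trend alone removed at 0.80. AGRN was at 363, 341 and 351 CPM against 406, 421 and 387 CPM (0.20 ± 0.07, adjusted p = 0.0266), and its call ended without control replicate 2 (0.15) or 3 (0.17) or talazoparib replicate 1 (0.20) or 2 (0.17), and trend-removed (0.04).

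LAMC1, the gamma chain shared by most laminins, fell from 218, 259 and 255 CPM to 200.3, 185 and 183 CPM (-0.36 ± 0.08, adjusted p = 0.00256), and HSPG2, the proteoglycan perlecan, from 169, 196 and 185 CPM to 141, 146 and 136 CPM (-0.38 ± 0.08, adjusted p = 0.00127). The groups did not overlap for either. Trend-removed HSPG2 was still lower (-0.35) and LAMC1 did not pass (-0.07); with the length trend alone removed HSPG2 was called higher (0.34). LAMA3 and LAMB1 overlapped between groups and did not pass, at 1.36 and 63.3 CPM in controls and 1.81 and 54.6 CPM with talazoparib. LAMA3 was called higher trend-removed (0.72), and LAMB1 was called lower without control replicate 1 (-0.36) and with total-count scaling (-0.29); trend-removed it was at -0.05 and did not pass.

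Enzymes that modify the matrix mostly rose, 4 of 5. PLOD1, a lysyl hydroxylase of collagen helices, went from 171, 159 and 159 CPM to 275, 281 and 269 CPM (0.75 ± 0.07, adjusted p = 1.09e-05). TGM2, tissue transglutaminase, which crosslinks matrix proteins, went from 65.8, 55.2 and 60.3 CPM to 97.5, 100.4 and 93.6 CPM (0.69 ± 0.08, adjusted p = 4.62e-05), and LOXL2 from 268, 258 and 268 CPM to 401, 415 and 374 CPM (0.59 ± 0.07, adjusted p = 4.18e-05). None of these 3 overlapped between groups, and trend-removed they were called higher at 0.38, 0.52 and 0.25. P4HA2, a prolyl hydroxylase subunit, was also higher, from 28.5 ± 1.92 to 34.3 ± 0.406 CPM (0.27 ± 0.09, adjusted p = 0.0259), a call that ended without control replicate 2 (0.19) or 3 (0.22) or talazoparib replicate 1 (0.26) and with total-count scaling (0.19). Trend-removed, P4HA2 was called higher at 0.36. PLOD2, the lysyl hydroxylase of collagen telopeptides, went the other way, from 71.9, 92.1 and 89.1 CPM to 62.1, 46.8 and 72.3 CPM (-0.48 ± 0.14, adjusted p = 0.0139). Its groups overlapped, as talazoparib replicate 3 exceeded control replicate 1. The call ended without control replicate 2 (-0.44) or 3 (-0.47), and trend-removed the sign changed (0.13, adjusted p = 0.0953); at 37.6%, its GC content is the lowest of the tested members.

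All 5 tested proteases or receptors rose, against 26.8% of all genes. None overlapped between groups, against 31.6% of all genes with talazoparib above without overlap. PLAU, urokinase, the serine protease that activates plasminogen (chr10:73909177-73917497, plus strand, same annotation), rose most firmly, from 442, 411 and 426 CPM to 821, 908 and 759 CPM (0.96 ± 0.08, adjusted p = 8.66e-06). PLAUR, its cell-surface receptor, rose from 66.4, 62.3 and 65.4 CPM to 97.5, 101 and 88.1 CPM (0.56 ± 0.08, adjusted p = 0.000121). MMP14, the membrane-anchored collagenase MT1-MMP, rose from 19.3, 19.6 and 19.2 CPM to 35.5, 36.5 and 34.2 CPM (0.87 ± 0.09, adjusted p = 2.00e-05). The spread within each group was small beside these rises, and trend-removed the 3 genes were called higher at 0.70, 0.26 and 0.52. PLAU shares exon sequence with C10orf55 on the opposite strand, which had 142 to 313 counts a library against at least 16909 for PLAU. Genes with more counts than C10orf55 share exon sequence with other members. They are ADRM1 with LAMA5 (7535 to 9344 counts a library), DLD with LAMB1 (803 to 2123) and RPRD1B with TGM2 (1648 to 2894). On the same strand ENTPD4 overlaps LOXL2 (1388 to 2504). These counts are of the whole gene, and reads in the shared stretches were not counted. How such reads were assigned is not given in the sources used here.

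MMP15, another membrane-anchored metalloproteinase, rose from 46.5, 43.4 and 46.4 CPM to 67.9, 65.7 and 61.3 CPM (0.52 ± 0.08, adjusted p = 0.000235), and did not pass trend-removed (0.11, adjusted p = 0.165). MMP1, interstitial collagenase, was near the limit of the test, at 0.736, 0.341 and 0.689 CPM against 1.15, 1.44 and 1.06 CPM (1.04 ± 0.34, adjusted p = 0.0196). It was higher trend-removed (1.34), and its call ended without control replicate 2 (0.73) or talazoparib replicate 2 (0.91). MMP9, with at most 3 counts in a library, and MMP2, with none, were not tested. These are the 2 gelatinases. A count of 0 for MMP2 allows at most 3 counts in a library, for counting error only. On library totals, without the TMM scaling of the other CPM values, that is 0.0758 to 0.0767 CPM.

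Of 3 protease inhibitors tested 1 rose and 2 did not pass. TIMP1 rose from 88.9, 73.4 and 78.9 CPM to 106, 118 and 94.6 CPM (0.40 ± 0.10, adjusted p = 0.0041), with the groups apart, but its trend-removed value was -0.05 and did not pass. TIMP2, which binds MMP14 and helps it activate MMP2, was at 442, 418 and 422 CPM against 492, 498 and 458 CPM and missed the threshold (0.18 ± 0.07, adjusted p = 0.0503). It passed with DESeq2 (0.18), limma-voom (0.18), RLE size factors (0.18), upper-quartile scaling (0.20), a minimum count of 50 (0.19) and without control replicate 1 (0.16) or talazoparib replicate 3 (0.21), and trend-removed it was at -0.03. SERPINE2, protease nexin-1, a serpin that inhibits urokinase and thrombin, was at 18.3, 21.6 and 19.5 CPM against 22.3, 21.9 and 22.1 CPM and did not pass (0.16 ± 0.11, adjusted p = 0.218), though trend-removed it did (0.38). TIMP3 had no count in any library.

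Proteases were also set beside their partners within each library. The FPKM ratio of MMP14 to TIMP2 was 0.0431, 0.0463 and 0.0448 in controls and 0.0712, 0.0724 and 0.0737 with talazoparib, 0.69 higher on the log2 scale. The ratio of PLAU to PLAUR was 7.55, 7.49 and 7.37 in controls and 9.55, 10.2 and 9.77 with talazoparib, 0.40 higher. For both the groups lay apart by far more than their spread, and both gave p = 0.10 by the two-sided exact permutation test, the smallest possible (0.15 adjusted over the 6 pairs). The ratio of LAMA3 to LAMB3 overlapped between groups (-0.39 on the log2 scale, exact p = 0.30).

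**Figure D4:**
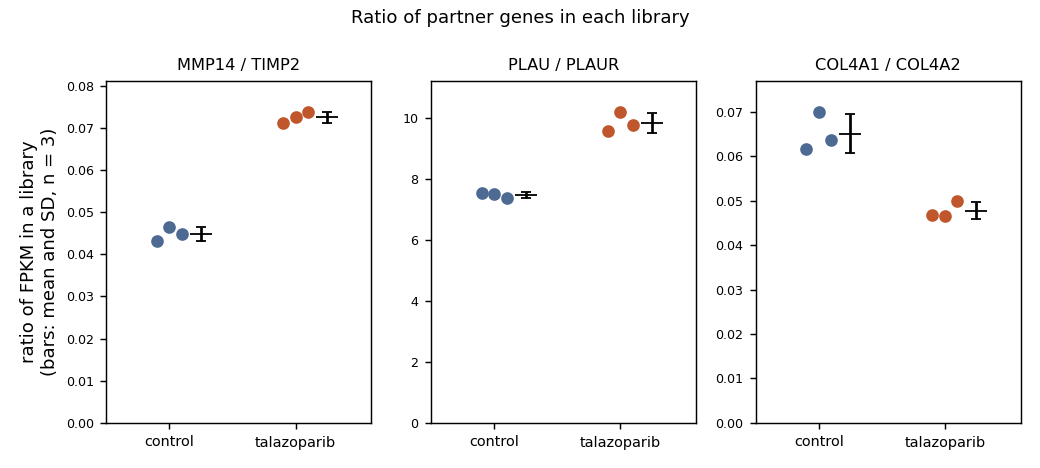
Ratio of the FPKM of 2 partner genes in each library (dots; blue control, orange talazoparib) with the mean and SD of 3 libraries beside them, on axes that start at 0. MMP14 to TIMP2 goes from 0.0448 to 0.0724 and PLAU to PLAUR from 7.47 to 9.84, while COL4A1 to COL4A2 goes from 0.0651 down to 0.0477.

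A further 149 genes of the same pathways were listed by function, of which 110 were tested. Of these 48 rose (43.6%) and 18 fell (16.4%), against 26.8% and 29.9% of all genes. Their median log2 fold change was 0.29. Trend-removed, 44 were higher and 16 lower, against 22.0% and 22.2% of all genes. Each list below is to be read beside the same all-gene shares, and no list was tested as a set. Among 15 other enzymes of collagen folding and modification 10 rose and 1 fell, but trend-removed 7 were higher and 4 lower. The procollagen protease BMP1 (0.76 ± 0.08), the protein disulfide isomerase P4HB (0.57 ± 0.08) and the galactosyltransferase COLGALT1 (0.56 ± 0.08) were higher in both fits, at 0.37, 0.16 and 0.23 trend-removed. Of 8 other plasminogen-system and inhibitor genes tested 5 rose and 1 fell, with the same counts trend-removed. ST14, the membrane serine protease matriptase, rose from 0.637 ± 0.0661 to 2.81 ± 0.0950 CPM, and its 2 inhibitors rose as well, SPINT1 from 4.27 ± 0.282 to 10.0 ± 1.1 CPM and SPINT2 from 122 ± 8.27 to 225 ± 3.84 CPM. Their trend-removed values were 1.71, 0.82 and 0.44, all past the test.

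Of 14 other collagens tested 6 rose and 8 did not pass, and trend-removed 3 were higher and 11 did not pass. COL17A1, the hemidesmosomal collagen that binds laminin-332, rose from 0.629 ± 0.234 to 2.66 ± 0.364 CPM and was higher trend-removed (1.91). COL18A1 rose by 0.45 ± 0.07 (0.21 trend-removed, still called), and COL6A1 rose by 0.37 ± 0.08 but did not pass trend-removed (-0.02). Of 9 other basement membrane genes tested 3 rose and 6 did not pass, with 4 higher trend-removed. FBLN1, fibulin-1, rose by 0.34 ± 0.08 and did not pass trend-removed (0.09), while the laminin-binding nidogen NID1 was higher in both fits (0.35 ± 0.10 and 0.35). Of 12 other metalloproteinases tested 3 rose and 2 fell, and trend-removed 5 were higher and 1 lower. ADAM15 (0.90 ± 0.07) and MMP24 (0.89 ± 0.10) were higher in both fits, at 0.47 and 0.55 trend-removed. ADAM10 was called lower as counted (-0.63 ± 0.13) and higher trend-removed (0.37). Of 7 other transition-related transcription factors tested 3 rose and 4 did not pass, and trend-removed 2 were higher and 2 lower. Those that rose were ID3 (0.89 ± 0.12), ID1 (0.59 ± 0.08) and SOX9 (0.62 ± 0.20), with trend-removed values of 0.36, 0.05 and 0.55, of which that of ID1 did not pass.

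Of 11 integrins tested 4 rose and 3 fell, whereas trend-removed 5 were higher and 6 did not pass. ITGA5, ITGA3 and ITGB5 were higher by 0.60 ± 0.07, 0.51 ± 0.07 and 0.51 ± 0.08, and trend-removed by 0.28, 0.19 and 0.34, all past the test. ITGB1, named after its values were seen, fell by 0.30 on the log2 scale and was called higher trend-removed (0.30). Of 18 TGF-beta pathway genes 7 rose and 7 fell, and trend-removed 5 were higher and 3 lower. LTBP3 (0.81 ± 0.09) and the co-receptor TGFBR3 (-1.77 ± 0.21) were called the same way trend-removed, at 0.45 and -1.22. SMAD2, a signal transducer of the receptors, fell by 0.73 on the log2 scale and was called higher trend-removed (0.48). Of 16 epithelial genes tested 7 rose and 4 fell, and trend-removed 8 were higher and 5 lower. JUP (1.18 ± 0.07), KRT19 (1.13 ± 0.10) and CLDN3 (1.31 ± 0.12) had the smallest adjusted p and were higher in both fits, at 0.80, 0.56 and 0.72 trend-removed. GRHL2, ESRP1, OVOL1 and OVOL2 had too few counts to be tested.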

How the data were processed

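RNA-seq of 6 libraries (3 control, 3 talazoparib) was analysed from the gene tables that the authors deposited. Read counts per gene were deposited by the authors as whole numbers without normalization, and FPKM values were deposited beside them. Per the submitters' processing notes, Trimmomatic, HISAT2, Cufflinks, HTSeq and GRCh38 were named; no version, annotation or strand setting was stated there. The test used edgeR 4.0.16 under R 4.3.3 (TMM, filterByExpr with a minimum count of 10, robust quasi-likelihood F test, Benjamini-Hochberg adjustment over all 14452 genes tested, threshold 0.05), after checking the steps on simulated data. SE was taken as the size of the log2 fold change over the root of F. The trend-removed fit adds offsets from splines (5 df each) of GC content and length for 13718 genes; lengths were recovered from deposited counts and FPKM. Alternatives used limma 3.58.1 and DESeq2 1.42.0. Library depth ran from 39123997 to 39585727 counts, and 3 libraries a group limit the precision.

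Values in every library are given for the 4 members of each role with the smallest adjusted p and for members of at least 100 CPM; the 3 genes with the smallest adjusted p are named from each other list. The members and lists were chosen with earlier results of these data known. Replicate numbers were not treated as pairs: deviations of same-numbered libraries correlated at -0.094, -0.17 and 0.0039. Of the other lists, 1 gene and the gene pairs that hold it are not reported here.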

Additional observations from a re-analysis of the deposited data

How the results depend on the processing

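Limits: 3 libraries a group, unknown dose and culture origin, a change that follows GC content and length, and uneven replicates (control replicate 1 against the other controls, talazoparib replicates 2 and 3 against each other). Of 27 called members, 20 kept their call in all 6 fits that left out 1 library, and 15 of these were called the same way trend-removed. Leaving out 1 library gave 13 to 19 members higher, 7 to 11 lower and a median of 0.17 to 0.27; over all genes 2622 to 3973 were higher and 3731 to 4576 lower, and of the other lists 42 to 49 higher and 11 to 23 lower, the 11 without control replicate 2. At a fold threshold of 1.2, 9 members lost their calls. These were AGRN, LAMA5, P4HA2 and TIMP1 of the higher, and COL3A1, FN1, HSPG2, LAMC1 and PLOD2 of the lower. Of the members 5 were still lower. Over all genes 2043 were higher, against 3873 without the threshold. The all-gene count of lower genes at this threshold is not given, so the members' lower count has no background here. The members' median was 0.11 on log2(FPKM + 1), against -0.031 over all genes. On log2(FPKM + 0.1) without a filter, which adds members too low for the main test, it was 0.10, against -0.023. With the length trend removed it was 0.47, with 4 members and 7 other genes lower; SNAI1 was at -0.0014, FN1 0.048, COL4A1 0.21, COL4A2 0.26, LAMB1 0.13, LAMC1 0.079 and HSPG2 0.34. With the GC and length trend removed, SNAI1 was at -0.26, VIM -0.15, PLOD2 0.13, TIMP1 -0.053 and TIMP2 -0.030. The cause was not tested. The replicate block left 14 members higher and 10 lower, with the calls of AGRN, LAMA5 and P4HA2 lost. No all-gene share is given beside these counts or beside the member counts with the length trend removed. With the replicate block and the length trend removed the median was 0.47, with 4 members and 6 other genes lower, and SNAI1 was at -0.012, FN1 0.047, COL4A1 0.21, COL4A2 0.26, LAMB1 0.13, LAMC1 0.078 and HSPG2 0.33. With the replicate block and both trends removed, 2566 genes were higher and 2575 lower, and SNAI1 was at -0.27, VIM -0.15, PLOD2 0.13, TIMP1 -0.055 and TIMP2 -0.030.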

Other observations

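Of the 110 tested genes in the other lists, 6 were called in opposite directions as counted and trend-removed: ADAM9, ADAM10, PPIB, ITGB1, TGFB1 and SMAD2. They were picked after their values were seen, though ADAM10 also falls under the naming rule for its list. The sheddase ADAM10 went from 82.5 ± 13.1 to 53.5 ± 6.61 CPM (-0.63 ± 0.13, adjusted p = 0.00142), and trend-removed it was called higher at 0.37. ADAM9 was at 228 ± 29.6 and 183 ± 30.3 CPM (-0.32 ± 0.12, adjusted p = 0.0425), and trend-removed at 0.32.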
